A study of Mus musculus with 74 samples.

Results

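Expression of 10 genes of lipid uptake, storage and synthesis was compared between primary mammary tumors (PT) and metastases in the lung (Lung met) of mouse breast cancer models. The genes were chosen by symbol: Cd36, Lpl and Fabp4 for uptake and handling of fatty acids, Fasn, Scd1, Scd2, Acaca, Acly and Srebf1 for their synthesis, and Pparg, which was counted with neither set. All 10 were found in each of the 5 tables used, among 22095 gene symbols in those tables. RNA was sequenced from 74 samples. It was recorded as total RNA depleted of ribosomal RNA, while the study's methods name mRNA libraries. Of the samples, 7 PT and 7 Lung met were titled C3Tag, and 6 of each tissue were titled for each of the Her2 and Myc models and of the PyMT-F1 crosses with SEAGN, BALB and AKR. The Her2 mice were FVB females with the MMTV-Her2(neu) transgene, C3Tag mice FVB females with C3(1)-TAg, and Myc mice FVB females with MMTV-Myc. In these 3 models, by the study's methods, the tumors of animals with single lesions were removed by surgery and those animals aged further. Which samples came from such animals is not given in the sources used here. The PyMT-F1 mice came from FVB males with the MMTV-PyMT transgene and females of AKR/J, BALB/cJ or SEA/GnJ. The MMTV promoter acts in mammary epithelium but also in other secretory tissues, and C3(1) likewise is not confined to the breast. The PTs of an animal were pooled before RNA was taken, and whole metastatic nodules were used.

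What the tables held was the authors' mean of normalized counts in PT and in Lung met for each gene, without a standard deviation or values of single animals. Every ratio below is therefore a quotient of 2 means, with no error and no test, and a difference shared by all animals cannot be told apart from one carried by a few. Each comparison was normalized separately, so levels were read within a comparison. Ranges of levels over the comparisons, given below, list the values and do not compare the models. The Myc table held no means and was not analysed here. One further table was deposited under AKR, but its strain could not be settled from the sources used here, and it is called the comparison deposited under AKR throughout. For the PyMT-F1 samples the genotype field and the titles disagreed, the strains named here are those of the titles and tables, and which samples entered each mean could not be settled. Since these were bulk samples, fewer cells of a type and less RNA per cell cannot be told apart.

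Cells obtain fatty acids by uptake or by synthesis. For uptake, lipoprotein lipase, encoded by Lpl, frees fatty acids from circulating triglyceride at the capillary wall, CD36 takes up long-chain fatty acids at the cell surface, and FABP4 carries them in the cytosol of adipocytes, macrophages and some endothelial cells. For synthesis, ATP citrate lyase (Acly) makes acetyl-CoA, acetyl-CoA carboxylase (Acaca) makes malonyl-CoA, fatty acid synthase (Fasn) builds palmitate, and the stearoyl-CoA desaturases (Scd1, Scd2) introduce a double bond. Srebf1 encodes the transcription factor that drives the synthetic enzymes, and Pparg the nuclear receptor that governs adipocyte differentiation and lipid storage. The mammary gland uses both routes, since milk fat is made from imported and from newly built fatty acids, and the gland lies in a fat pad rich in adipocytes. In the lung, capillary endothelium and alveolar macrophages express Cd36, and alveolar type 2 cells make fatty acids for surfactant.

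The stretches upstream of Cd36 and Fasn are shown because these genes had the widest ranges of ratios among the uptake and the synthesis members. Both are the 250 bases before an annotated start, from RefSeq on GRCm38.p6, printed on the gene's own strand. They lie at chr5:17835897-17836146 for Cd36 and chr11:120824548-120824797 for Fasn, both on the minus strand. The Cd36 stretch lies inside the GENCODE span of the gene, which runs on upstream to 17888801. It is therefore that of an internal start, and the start furthest upstream was not searched. The capitals mark the letters CCAAT on either strand, the box bound by NF-Y.
Cd36: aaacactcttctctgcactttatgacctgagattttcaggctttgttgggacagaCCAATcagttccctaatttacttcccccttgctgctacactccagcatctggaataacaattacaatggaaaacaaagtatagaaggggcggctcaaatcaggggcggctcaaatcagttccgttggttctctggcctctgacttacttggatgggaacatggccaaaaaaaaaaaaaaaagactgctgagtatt
Fasn: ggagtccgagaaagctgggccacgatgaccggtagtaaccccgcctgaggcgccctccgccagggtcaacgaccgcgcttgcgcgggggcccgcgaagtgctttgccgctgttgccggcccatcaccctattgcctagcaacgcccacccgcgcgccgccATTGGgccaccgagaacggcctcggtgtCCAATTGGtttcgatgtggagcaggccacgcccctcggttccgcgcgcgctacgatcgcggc
The Fasn stretch held the box 3 times, beginning 90, 62 and 59 bases before the start, the last 2 overlapping on opposite strands, and Cd36 held it 1 time, beginning 195 bases before the start. CCAAT was present in 33.8% of all 32851 stretches of this length. The table held 10 starts for 6 of the members (Cd36, Pparg, Fasn, Acaca, Acly and Srebf1), and 6 of those 10 starts had the box. The sterol element searched as TCACNCCAC was in 1.05% of all stretches and the E-box CACGTG in 6.02%, and neither was in the 10 of the members. AGGTCA, the half-site of nuclear receptors, was in 14% of all stretches and in 4 of the 10. Each motif was searched on both strands, and none of the 4 strings contains another.

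Cd36 had the largest differences of the 10 genes. In C3Tag its mean was 161.7 in PT and 7164 in Lung met, a ratio of 44.3 (log2 5.47), above that of 99.9% of the 19320 genes with means. In BALB the means were 41.3 and 444, a ratio of 10.8. In SEAGN they were 57 and 491, a ratio of 8.63. The comparison deposited under AKR gave 553 in PT and 3883 in Lung met, a ratio of 7.02, so the Lung met mean was at least 2-fold above the PT mean in 4 of 5 comparisons.

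Her2 stood apart from these. There the PT mean of Cd36 was 23958 and the Lung met mean 27950, a ratio of 1.17. The PT mean was above that of 99.4% of all genes in Her2, a rank on counts not divided by length. In the other 4 comparisons the PT mean of Cd36 was above 30%, 35.7%, 38.2% and 53% of genes, for BALB, SEAGN, C3Tag and the comparison deposited under AKR in that order. The small ratio in Her2 went with a Cd36 level already near the top of the PT transcriptome, while its Lung met mean, above 99.5% of genes in Her2, was above 76.5% to 97.9% of genes in the other 4. Some genes of milk were also abundant in Her2. Csn2, a casein, had a PT mean of 56712 and a Lung met mean of 156724, and Csn1s1 means of 97227 and 116177. Wap, the other milk gene listed, had lower means of 433 and 2767. The part of milk gene expression in the Cd36 level was not tested.

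**Figure D1:**
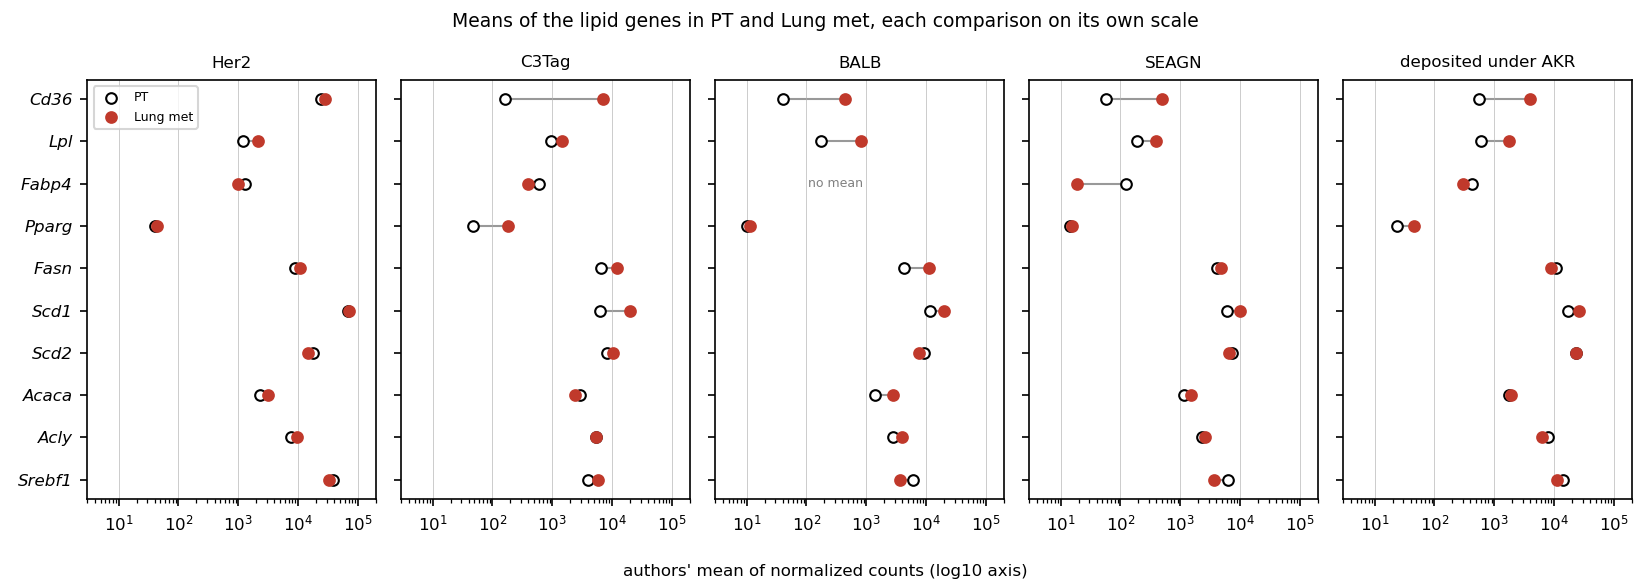
Authors' mean of normalized counts in PT (open circles) and Lung met (filled circles) for the 10 genes, 1 panel per comparison, on a log10 axis; no error can be drawn because only means were held. Cd36 is the gene with the widest gap in C3Tag (161.7 against 7164) and has nearly the same, very high mean in both tissues in Her2; Fabp4 had no mean in BALB.

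Lpl, the lipase, also had a higher Lung met mean in all 5 comparisons. The means in BALB were 175 in PT and 814 in Lung met, a ratio of 4.67. The ratio was 2.90 in the comparison deposited under AKR (603 and 1746) and 2.08 in SEAGN (189 and 392.3). In Her2 (1213 and 2130) and C3Tag (958 and 1444) the ratios were 1.76 and 1.51, below 2-fold. The order of the comparisons differed from that of Cd36: C3Tag had the largest ratio for Cd36 and the smallest for Lpl.

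Fabp4, the cytosolic carrier, went the other way, with a lower Lung met mean in each of the 4 comparisons with a value. The difference was largest in SEAGN, with 126 in PT and 19 in Lung met, 6.62 times lower in Lung met (log2 -2.73) and lower than the ratio of all but 0.271% of genes. In C3Tag the means were 592 and 394 (log2 -0.59), in the comparison deposited under AKR 422 and 299 (log2 -0.50), and in Her2 1287 and 988 (log2 -0.38), none past 2-fold. In BALB the row of Fabp4 held no mean. Cd36 and Lpl thus did not share a direction with Fabp4. Per kilobase of exon, Cd36 stood at 0.342 times Fabp4 in C3Tag PT and at 22.8 times in C3Tag Lung met, and at 0.565 and 32.3 times in SEAGN. The annotated exons of Fabp4 together cover its whole span (4489 bases), and its longest transcript has 4231 bases. If shorter transcripts carry its counts, its level per kilobase is understated and these quotients are too high. Their change from PT to Lung met does not depend on the length used.

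Pparg, a low-level transcript here, had PT means between 10.1 (BALB) and 47.9 (C3Tag). Its Lung met mean was higher in all 5 comparisons, but past 2-fold in C3Tag alone, where it was 179 against 47.9, a ratio of 3.73. The comparison deposited under AKR came next with 45.1 against 23.7, a ratio of 1.90. In Her2, BALB and SEAGN the ratios were 1.06, 1.14 and 1.06. Of the uptake genes in C3Tag, Fabp4 had the lower mean in Lung met and Cd36 and Lpl the higher one, as given above. The part of Pparg in these differences was not tested.

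Among the synthesis genes, the differences were smaller and of both signs. Acly, the first step, had ratios between 0.791 (the comparison deposited under AKR, 7937 in PT and 6280 in Lung met) and 1.41 (BALB, 2825 and 3973), and in no comparison passed 2-fold. Acaca, the carboxylase, spanned 0.85 (C3Tag, 2862 and 2433) to 1.98 (BALB, 1385 and 2746), just under 2-fold in BALB. Fasn, the synthase, was higher in the Lung met mean of 4 comparisons: BALB was the widest, 4251 in PT and 11265 in Lung met, a ratio of 2.65, followed by C3Tag (6553 and 11991, 1.83), Her2 (8782 and 10916, 1.24) and SEAGN (4056 and 4826, 1.19). In the comparison deposited under AKR the order was reversed, 10853 in PT and 8825 in Lung met, a ratio of 0.813. In BALB, Acly, Acaca and Fasn, the successive steps from citrate to palmitate, each had their largest ratio.

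The desaturases differed from each other. Scd1 had the higher mean in Lung met in all 5 comparisons, from a ratio of 1.04 in Her2 (67441 and 70201) to 3.11 in C3Tag (6322 and 19692), with 1.73 in BALB, 1.62 in SEAGN and 1.54 in the comparison deposited under AKR. Scd2, its neighbour on chromosome 19, was slightly lower in Lung met in 4 of 5, from 0.829 in Her2 (17557 and 14549) to a ratio of 1.00 in the comparison deposited under AKR (22782 and 22781), and 1.26 in C3Tag (8220 and 10368). Scd2 had the narrowest range of the 10 genes over the comparisons, 0.61 on the log2 scale against 5.25 for Cd36. The 2 genes share 50-base stretches over 4.66% of the longest Scd1 transcript, with Scd3 counted too, so most of their sequence is distinct. Per kilobase of exon, Scd1 stood at 0.859 times Scd2 in C3Tag PT and 2.12 times in C3Tag Lung met, and the quotient was higher in Lung met than in PT in each of the 5 comparisons (Her2 4.29 and 5.39, BALB 1.43 and 2.97, SEAGN 0.939 and 1.74, the comparison deposited under AKR 0.823 and 1.27).

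Srebf1, the transcription factor of this pathway, had a log2 ratio of the opposite sign to that of Fasn, a target gene of it, in Her2, BALB and SEAGN. Its Lung met mean was below the PT mean in 4 comparisons, most in SEAGN (6388 in PT and 3702 in Lung met, a ratio of 0.58) and BALB (6076 and 3704, 0.61), then in the comparison deposited under AKR (14157 and 11365, 0.803) and Her2 (37530 and 32705, 0.871). It was the higher one in C3Tag, 3965 in PT and 5896 in Lung met, a ratio of 1.49. The gap between the genes was widest in BALB, log2 1.41 for Fasn and -0.71 for Srebf1. In C3Tag and the comparison deposited under AKR, Fasn and Srebf1 had the same sign. Among the other synthesis genes, Acly had the sign of Fasn in every comparison. Acaca had the opposite sign to Srebf1 in every comparison, and Scd1 in all except C3Tag. Scd2 had the same sign as Srebf1 in each, though with a ratio of 1.00 in the comparison deposited under AKR. Counts per gene cannot separate the Srebf1 promoters that give SREBP-1a and SREBP-1c.

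**Figure D2:**
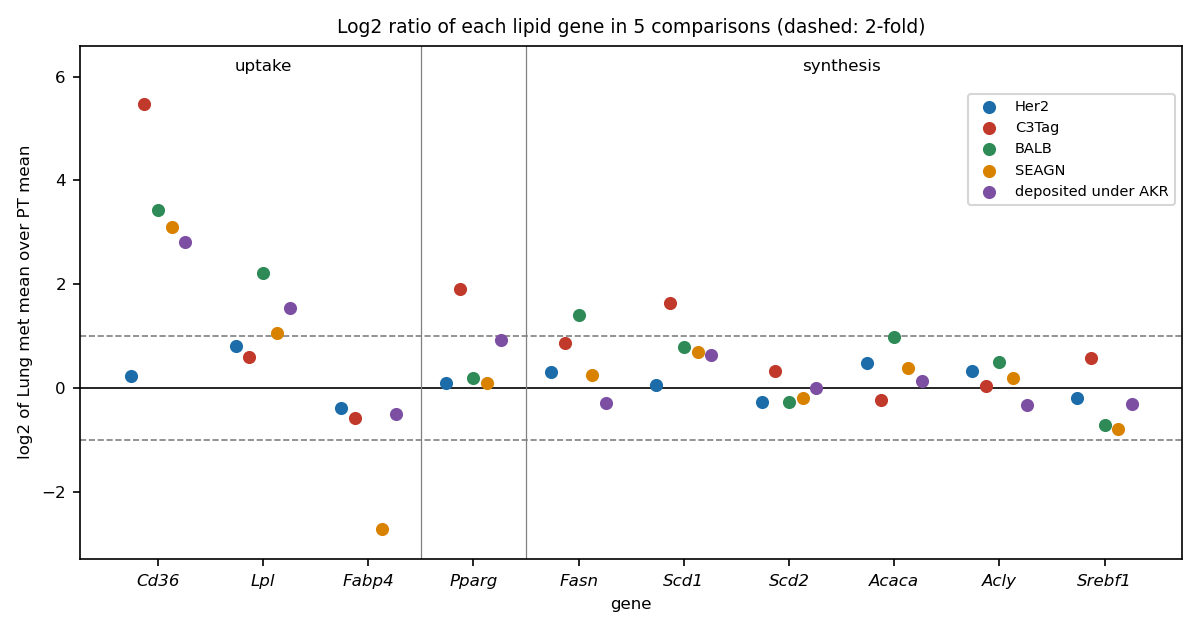
Log2 of the Lung met mean over the PT mean for each gene (x axis) in the 5 comparisons (colours), with dashed lines at 2-fold; each point is a ratio of 2 means and has no error. Cd36 and Lpl lie above 0 in all 5 comparisons and Fabp4 below 0 in the 4 with a value, while the synthesis genes lie on both sides, from -0.79 (Srebf1, SEAGN) to 1.64 (Scd1, C3Tag).

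Counted at 2-fold, members with a higher Lung met mean were 0 of 10 in Her2 (2.38% of all genes), 3 of 10 in C3Tag (7.42%), 3 of 9 in BALB (2.26%), 2 of 10 in SEAGN (2.86%) and 2 of 10 in the comparison deposited under AKR (7.31%). Lower by 2-fold were 0 of 10 in Her2 (1.43% of all genes), 0 of 10 in C3Tag (1.7%), 0 of 9 in BALB (2.4%), 1 of 10 in SEAGN (3.22%) and 0 of 10 in the comparison deposited under AKR (1.73%). The higher ones were Cd36, Pparg and Scd1 in C3Tag, Cd36, Lpl and Fasn in BALB, and Cd36 and Lpl in SEAGN and in the comparison deposited under AKR. The 1 lower member was Fabp4. With 9 or 10 members, each count rests on few genes, and Cd36 was among the higher ones in every comparison that had any.

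Set against each other, the uptake members had the higher median log2 ratio in all 5 comparisons, but by little in 2 of them. In Her2 the medians were 0.22 for the 3 uptake genes and 0.19 for the 6 synthesis genes, a difference of 0.04. In C3Tag they were 0.59 and 0.45, a difference of 0.14. The gap was wider in SEAGN (1.06 and 0.22), in the comparison deposited under AKR (1.54 and -0.15) and in BALB (2.83 from 2 uptake genes and 0.64). The median of all genes lay between -0.0013 and 0.03 in the 5 comparisons. The uptake median hides the split between its members: in C3Tag the 3 genes ran from -0.59 to 5.47 and in SEAGN from -2.73 to 3.11, a wider span than that of the 6 synthesis genes there (-0.23 to 1.64, and -0.79 to 0.70). In Her2 the difference turned to -0.091 when Srebf1 or Scd1 was left out of the synthesis genes and to -0.029 when Pparg was added to the uptake genes.

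Levels of different genes were compared within a tissue as mean normalized counts per kilobase of exon. The desaturases led in PT of 5 of 5 comparisons, Scd1 in Her2 (13786 per kb) and BALB (2390 per kb), and Scd2 in C3Tag (1504 per kb), SEAGN (1338 per kb) and the comparison deposited under AKR (4169 per kb). In Lung met Scd1 was first in all 5, between 2041 per kb in SEAGN and 14350 per kb in Her2. Pparg was last in every group except SEAGN Lung met, where Fabp4 (4.24 per kb) lay below it (5.16 per kb). That order rests on the long exon length of Fabp4 given above and cannot be read. Cd36 moved most in this order: in C3Tag it was the ninth of 10 in PT (45 per kb) and the second in Lung met (1996 per kb), whereas in Her2 it was the second in both (6673 and 7786 per kb). Some neighbours were nearly level, such as Cd36 and Srebf1 in Her2 PT (6673 and 6661 per kb) and Fasn, Srebf1 and Acly in C3Tag Lung met (1095, 1047 and 1036 per kb), and without a spread between animals their order cannot be read.

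The genes lie at 10 separate loci, given here on GRCm38 from GENCODE M21. Cd36 spans 17781690 to 17888801 on chromosome 5, Lpl 68880491 to 68907448 on chromosome 8, Fabp4 10204088 to 10208576 on chromosome 3 and Pparg 115360951 to 115490399 on chromosome 6. Fasn (120805846 to 120824547), Acaca (84129672 to 84401651), Acly (100476353 to 100528000) and Srebf1 (60199089 to 60222581) are all on chromosome 11, and Scd2 (44293674 to 44306864) and Scd1 (44394455 to 44407879) on chromosome 19. Acaca shares 52.6% of the 50-base stretches of its longest transcript with the gene Gm5182, so reads could have been split between them. Gm5182 had means of 1225 in PT and 1994 in Lung met in Her2 (log2 0.70, against 0.49 for Acaca), and of 1850 and 1479 in C3Tag (log2 -0.32, against -0.23). Srebf1 overlaps Rai1 on the opposite strand, and whether strand was used in counting is not given in the sources used here.

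The other genes of lipid metabolism, 83 genes in 5 lists, were mostly close to their PT means. Of those with a mean of at least 10 in PT or Lung met, 2 of 80 were 2-fold higher in Lung met in Her2, 5 of 80 in C3Tag, 0 of 77 in BALB, 0 of 76 in SEAGN and 2 of 79 in the comparison deposited under AKR. Those 2-fold lower numbered 1, 2, 2, 1 and 2 in the same order. These shares, 0% to 6.25% higher and 1.25% to 2.60% lower, stand beside 2.21% to 7.61% higher and 1.44% to 3.15% lower among all genes with such a mean.

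In the list of fatty acid uptake and handling, 14 genes, the median log2 ratio lay between 0.04 (Her2) and 0.30 (the comparison deposited under AKR). Gpihbp1, the endothelial protein that anchors lipoprotein lipase to the capillary wall, had the higher mean in Lung met in all 5 comparisons: its ratio was 4.62 in the comparison deposited under AKR (259 and 1196), 3.10 in C3Tag (148 and 459) and 2.29 in Her2 (350 and 802), with log2 0.49 in BALB and 0.52 in SEAGN. Gpihbp1 and Lpl, which act together, were thus both higher in every Lung met mean, though their ratios were not ordered alike, since Lpl had its largest ratio in BALB, where that of Gpihbp1 was smallest. Angptl4, an inhibitor of the lipase, was past 2-fold in C3Tag (429 and 901) and of the other sign in SEAGN (111 and 93.9). Fabp5, the epidermal relative of Fabp4, had log2 ratios from 0.03 in Her2 to 0.70 in BALB, none below 0.

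Beyond the members, the list of synthesis, desaturation and their regulators had medians from -0.05 to 0.12. Thrsp, which acts with the synthetic enzymes in lipogenic tissue, was lower in the Lung met mean of C3Tag (1009 and 441, log2 -1.20) and of the comparison deposited under AKR (7159 and 3766, log2 -0.93), and higher in the other 3 (log2 0.24 to 0.42). In C3Tag, Thrsp and Scd1 therefore differed in opposite directions. Acacb, the second carboxylase, ran from log2 -0.74 in C3Tag to 0.50 in SEAGN. Insig1, which holds SREBPs in the endoplasmic reticulum, ran from log2 -0.53 in BALB to 0.41 in the comparison deposited under AKR.

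In the list of sterol synthesis, 0 genes passed 2-fold in any comparison. Its median was highest in SEAGN, log2 0.46, where all 15 genes with a value had the higher mean in Lung met, and lowest in Her2, -0.12. Fatty acid oxidation had medians from 0.01 to 0.12. Cpt1a, which admits fatty acids to mitochondria, ran from log2 -0.20 in BALB to 0.36 in C3Tag.

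The list of triglyceride synthesis, lipid droplets and lipolysis had medians from -0.05 to 0.22. Plin2, the droplet coat protein of most cells, was higher in each Lung met mean, from log2 0.12 in SEAGN to 0.97 in BALB (1459 and 2866). Plin4, a droplet protein of adipocytes and muscle that was named after its values were seen, was lower in each of the 5, from log2 -0.82 in C3Tag (276 and 156) to -1.97 in Her2 (117 and 29.8). Plin4 and Fabp4 shared this direction, whereas Lipe, a lipase of the same list, was higher in each Lung met mean (log2 0.25 in Her2 to 0.74 in BALB). The adipocyte markers Adipoq, Plin1 and Cidec were not analysed here, nor were the 3 others of the adipocyte list.

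**Figure D3:**
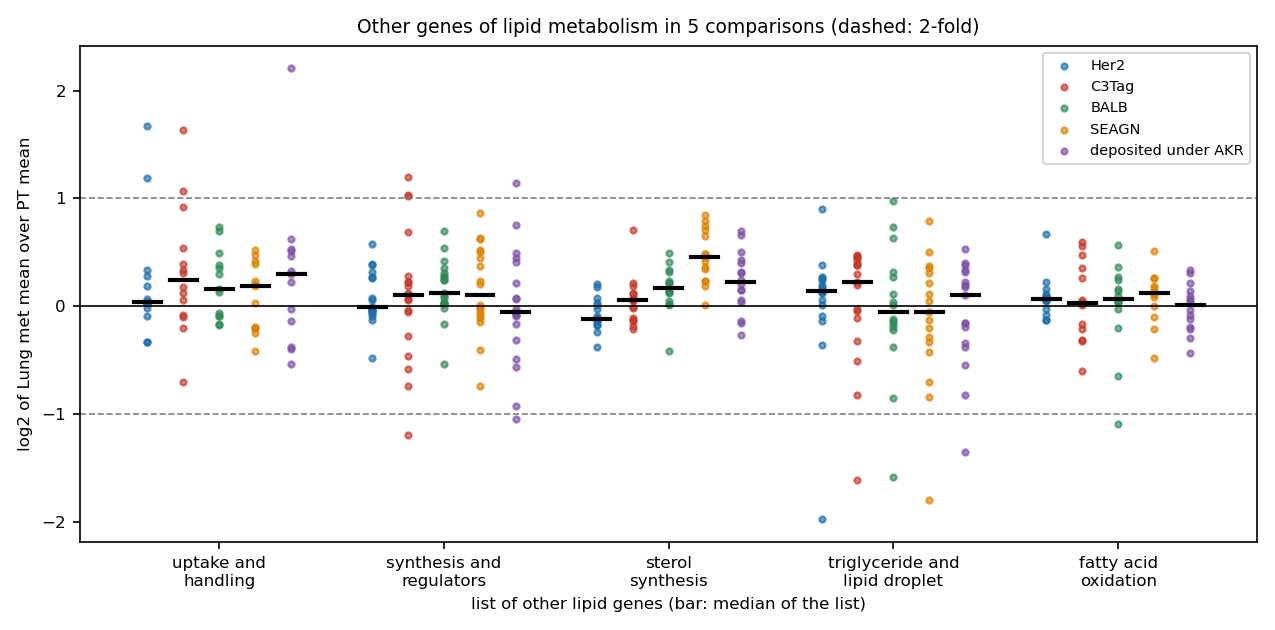
Log2 of the Lung met mean over the PT mean for the other lipid genes with a mean of at least 10 (points) by list and comparison (colours), with the list median as a bar and dashed lines at 2-fold. The medians run from -0.12 to 0.46, and most genes lie within the dashed lines.

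Markers of the cell types that a piece of mammary tumor or of lung can hold differed between PT and Lung met. The 4 alveolar type 1 markers (Ager, Clic5, Hopx and Rtkn2) were each past 2-fold higher in all 5 comparisons, and their summed mean was 43 to 475 in the PT groups and 702 to 14556 in the Lung met groups. Of 7 alveolar type 2 markers, 4 had values, with list medians from log2 2.47 (Her2) to 6.93 (C3Tag), and Lamp3, Napsa and Slc34a2 were past 2-fold in 5 of 5 comparisons. The summed mean of the 4 was 1918 to 7518 in PT and 5417 to 35955 in Lung met; Sftpc was not analysed here. The fourth, Abca3, made up most of the sum in Her2 PT (5907 of 7518) and had log2 -0.02 there, while Lamp3 was 36.5 times and Napsa 12.8 times as high in Her2 Lung met. Cd36 had its smallest ratio in Her2 and its largest in C3Tag, as the type 2 median did, but the type 1 median was 4.22 in Her2 and 4.204 in C3Tag. In BALB, with the next largest Cd36 ratio, the type 1 median was the lowest of the 5 at 3.71. The part of lung tissue in the Cd36 ratio was not tested.

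The 5 endothelial markers with values, among them Pecam1, had list medians from log2 0.44 in BALB to 1.44 in the comparison deposited under AKR. Their summed mean was 870 to 3221 in PT and 1231 to 6362 in Lung met, 1.42 to 2.98 times as high in Lung met. Pecam1 itself had log2 0.56 in Her2, 1.26 in C3Tag, 0.44 in BALB, 0.63 in SEAGN and 1.87 in the comparison deposited under AKR, less than Cd36 in each except Her2. Emcn, on the same list, was lower in Lung met in BALB (log2 -0.22) and SEAGN (-0.33), and higher in the others (0.66 to 0.86). In BALB, where Lpl had its largest ratio, the endothelial list had its smallest median. Macrophage markers had medians from -0.32 in Her2 to 0.72 in the comparison deposited under AKR, though Lyz2, which alveolar type 2 cells also express, was past 2-fold in 4 of 5. The summed mean of the list was 1455.7 to 14926.5 in PT and 3836 to 54272 in Lung met. Most of it was Lyz2 in Lung met (3074 of 3836 in BALB and 50658 of 54272 in the comparison deposited under AKR). Adgre1 and Csf1r had log2 ratios from -0.40 to 0.26. Cd68 was higher in each Lung met mean, from log2 0.07 in Her2 to 1.16 in the comparison deposited under AKR. Mrc1 ran from log2 -1.64 in Her2 to 0.79 in C3Tag. Of 5 alveolar macrophage markers, 1 or 2 had values per comparison, and their sums were 17.2 to 942 in PT and 212 to 1634 in Lung met. Krt79 made up 922 of the 942 in C3Tag PT and was the only one with values in BALB. The markers were split. Chil3 was 57 times as high in Lung met in Her2 and 55.7 times in SEAGN. Ear2 was 60.4 times as high in C3Tag and 19.7 times in the comparison deposited under AKR. Krt79 had log2 1.96 in Her2 and 0.18 in BALB, but -1.18 in C3Tag and -1.25 in SEAGN. Marco was not analysed here. The part of these cells in the Lpl and Cd36 ratios was not tested.

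The fibroblast list had medians below 0 in all 5 comparisons, from log2 -2.42 in SEAGN to -0.06 in C3Tag, and Lum, Col1a1 and Col1a2 were past 2-fold lower in 5, 4 and 4 comparisons. The list was split: Pdgfra, a growth factor receptor, had the higher mean in Lung met in all 5 (log2 0.44 to 0.94), and Dcn, a proteoglycan, was lower in 4 and higher in C3Tag (log2 0.75). The summed mean of the list was 8754 to 26264 in PT and 2329 to 23265 in Lung met. Acta1, an actin of skeletal muscle, was past 2-fold lower in 4 of 5 and higher in the comparison deposited under AKR (7.6 and 25.1). The skeletal muscle list, with 1 or 2 of 3 markers per comparison, summed to 15.1 to 1012 in PT and 6.58 to 37.6 in Lung met. The fibroblast median was lowest in SEAGN, where Fabp4 differed most, but closest to 0 in C3Tag, where Fabp4 had its next largest difference, and it was -1.34 in Her2, where Fabp4 differed least. Brown adipocyte markers, 1 or 2 of 3 per comparison, summed to 33.3 to 276 in PT and 8.09 to 356 in Lung met, and did not share a direction: Cidea and Dio2 had log2 0.90 and -1.59 in Her2, and -1.61 and 0.71 in C3Tag. What tissue around the mammary tumors contributed to the Fabp4 ratio was not tested.

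The luminal mammary markers had medians between -0.23 and 0.08. Krt8, the keratin of luminal cells, had log2 ratios of -0.02 in Her2, 0.64 in C3Tag, -0.02 in BALB, 0.21 in SEAGN and 0.13 in the comparison deposited under AKR. Esr1, the estrogen receptor, had log2 -1.20 in C3Tag, -0.71 in SEAGN and -0.80 in the comparison deposited under AKR, and Epcam -0.68 in C3Tag. The summed mean of the list was 9231 to 90477 in PT and 9873 to 85436 in Lung met. Milk genes, 1 to 3 of them, had values in 4 comparisons, with sums of 365 to 154372 in PT and 640 to 275668 in Lung met. They were split: Csn2 and Wap had log2 2.45 and -1.61 in SEAGN, and 0.47 and -1.39 in the comparison deposited under AKR. In Her2 and BALB those with values were higher in Lung met.

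**Figure D4:**
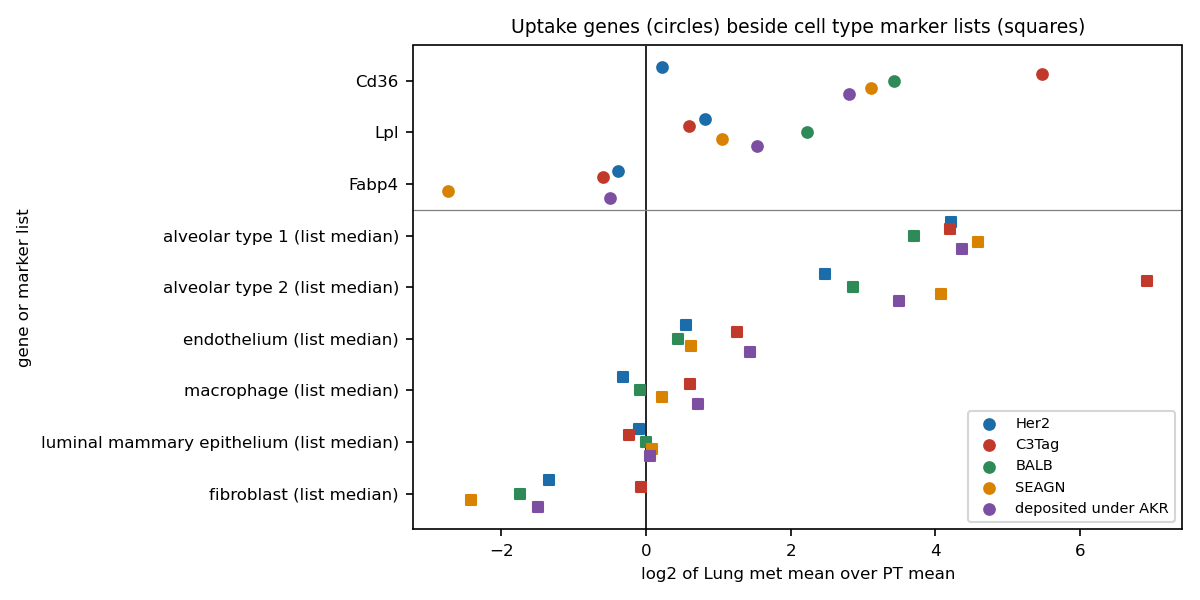
Log2 of the Lung met mean over the PT mean for Cd36, Lpl and Fabp4 (circles) and the median of 6 cell type marker lists (squares) in the 5 comparisons (colours). The alveolar lists lie between 2.47 and 6.93, the luminal mammary list between -0.23 and 0.08, and the fibroblast list at or below -0.06. The list medians do not show splits within a list, such as those of the fibroblast, macrophage, luminal mammary and endothelial lists.

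Among 11920 genes with a single row and a mean of at least 10 in each comparison, likeness to Cd36 was measured as the Euclidean distance between log2 ratios over the 5 comparisons. The nearest were Scnn1g, a subunit of the epithelial sodium channel (distance 1.38), Atp7b, a copper transporter (1.47), Lrrk2 (2.38), the alveolar type 1 marker Hopx (2.703) and Enpep, an aminopeptidase (2.74). Scnn1g had log2 1.17 in Her2 and 5.54 in C3Tag, against 0.22 and 5.47 for Cd36. Hopx is on the alveolar type 1 list given above. For Fasn the nearest were Gprc5b (0.41), Rnf225 (0.68), the hexokinase Hk2 (0.72), Got1 (0.75) and Sec14l1 (0.76). Gprc5b had log2 1.34 in BALB and -0.11 in the comparison deposited under AKR, against 1.41 and -0.30 for Fasn. The distances to Fasn were smaller than those to Cd36, as the ratios of Fasn themselves were.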

How the data were processed

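RNA from PT and Lung met was recorded as ribosome-depleted total RNA, whereas the study's methods name mRNA libraries. Which of them was used was not settled here. The authors aligned reads (STAR 2.7.8a and the build mm39 are in the submitters' processing notes, and the study's methods name other builds) and normalized gene counts in Partek Flow. The values used here are the deposited signal per gene, the authors' least-squares mean of each tissue group, without errors. Whether they are geometric is not given in the sources used here. The strain of the means deposited under AKR is unsettled, and they were kept as a comparison of their own. The 5 tables also held p-values, false discovery rates, ratios and fold changes of the authors' own comparisons, and the Myc table only the first 2 of these; none were used. Sequencing depth per sample is unknown.

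With Python 3.11.15 (numpy 2.4.6, pandas 2.3.3), Lung met means were divided by PT means with no pseudocount, over genes with both means (17270 to 19320 per comparison; 0 to 116 rows had none). A 2-fold ratio counted as past the limit; lists were read over genes with a mean of at least 10. No test was possible. The functions were tested on simulated data. Levels per kilobase used the union of annotated exons. Members and lists were chosen with earlier results of these data known. Named were all members, list genes past 2-fold one way in at least 4 comparisons (at most 4 per list), genes set by name, and the 5 genes nearest to Cd36 and to Fasn. Some of the genes set by name are not reported here. Other markers were named after their values were seen, to show where a list was split. Alternatives were a pseudocount of 1, recentring on all genes, limits of 1.5-fold and 3-fold, no filter, other list membership and the longest transcript as length.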

Additional observations from a re-analysis of the deposited data

How the results depend on the processing

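No paired analysis was possible because the tables hold only the mean of each tissue group, although animal numbers in the titles tie PT and Lung met samples. Leaving out each animal in turn was not run for the same reason. None of the 49 ratios of members crossed 2-fold or changed sign with a pseudocount of 1 or after recentring on all genes, and the medians and counts moved by less than 0.1 log2 or 1.5 times in those settings.

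The limit changed the counts. At 1.5-fold the members higher in Lung met were 1 in Her2 (5.42% of all genes), 5 in C3Tag (14%), 5 in BALB (6.2%) and 4 in the comparison deposited under AKR (13.6%). In SEAGN, Cd36, Lpl and Scd1 were higher by this limit (7.11%). Those lower were 1 in C3Tag (5.61%), 1 in BALB (6.76%) and 2 in SEAGN (8.32%). No member was lower by this limit in Her2 (3.62%) or in the comparison deposited under AKR (6.32%). At 3-fold 1 was higher in SEAGN (1.19% of all genes) and 1 in the comparison deposited under AKR (3.31%). Cd36, Pparg and Scd1 stayed past 3-fold in C3Tag (3.52% of all genes), and Cd36 and Lpl in BALB (0.77%). At 1.5-fold the other lipid genes higher in Lung met were 4 of 80 in Her2 (5.42% of all genes), 9 of 80 in C3Tag (14%), 6 of 77 in BALB (6.2%), 9 of 76 in SEAGN (7.11%) and 6 of 79 in the comparison deposited under AKR (13.6%). Those lower were 6 of 80 in C3Tag (5.61%), 4 of 77 in BALB (6.76%), 4 of 76 in SEAGN (8.32%) and 4 of 79 in the comparison deposited under AKR (6.32%). These shares of all genes have no filter on the mean. Of the marker genes with values in C3Tag, fewer than the 51 listed, 21 were higher at 1.5-fold. The share of all genes there, with no filter, was 14%. With no filter on low means the skeletal muscle median in the comparison deposited under AKR was log2 0.95.

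The medians depended on which of the few genes were counted. Leaving out Srebf1 gave synthesis medians of 0.31 in Her2, 0.33 in C3Tag, 0.79 in BALB and -6.6e-05 in the comparison deposited under AKR, and uptake minus synthesis of -0.0914, 0.26, 2.04 and 1.54. Leaving out Scd1 gave 0.31, 0.33, 0.49 and -0.30, with differences of -0.0914, 0.26, 2.33 and 1.83. Adding Pparg to the uptake genes gave uptake medians of 1.25 in C3Tag, 2.22 in BALB, 0.57 in SEAGN and 1.23 in the comparison deposited under AKR, with differences of 0.79, 1.58, 0.35 and 1.38. In Her2 it gave 0.16 and turned the difference from 0.04 to -0.029. Leaving out Fabp4, a choice made after seeing the data, gave uptake medians of 0.52 in Her2, 3.03 in C3Tag, 2.08 in SEAGN and 2.17 in the comparison deposited under AKR, with differences of 0.33, 2.58, 1.86 and 2.32. Without the comparison deposited under AKR the uptake median was the higher in 4 of 4. With the longest transcript as length, 27 of 98 ranks per kilobase moved, by at most 2 places.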
